A study of Sus scrofa with 4 samples.

Results

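The microRNAs ssc-miR-21, ssc-miR-210, ssc-miR-335 and ssc-miR-383, which have known roles in oxidative stress or low oxygen, were followed through the hippocampus of newborn piglets given iron dextran. They were taken by number, any arm, from the deposited table of annotated pig miRNAs, where they are 4 of 321 miRNAs, and by family name from the deposited table of conserved miRNA sequences, where mir-21, mir-210, mir-335 and mir-383 fill 34 of 2791 rows. The study sequenced small RNA from Rongchang piglets, a Chinese breed, whose genotype is labelled "wide type": 8 littermates, 4 female and 4 male, of which 4 were made an oxidative stress group and 4 were controls, with the same sex ratio. The iron group had 200 mg of iron dextran, an injectable complex of iron and sugar, put into muscle on days 3 and 4 of life; the controls are labelled as injected with none. Dorsal and ventral hippocampus were collected apart and the tissue was mixed within each group, so the groups are iron dorsal, control dorsal, iron ventral and control ventral, with 1 pooled library each. The labels state neither the age at collection nor how many piglets went into each pool. No group has a replicate: each ratio below compares 2 libraries, its 95% interval covers counting error only, and differences from piglet to piglet were not observed.

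A miRNA is cut from a hairpin whose 2 arms, 5p and 3p, can each give a mature strand, and it lowers mRNAs that pair with its seed, bases 2 to 8. Of the 4, miR-21 is abundant in glia and vessel walls, is raised in many cells by reactive oxygen, and is known to lower the tumour suppressor PDCD4 in human and rodent cells. The hypoxia factor HIF-1 induces miR-210, which in human cells lowers ISCU, the scaffold on which iron-sulphur clusters are built. In rat kidney cells miR-335 is known to lower the mitochondrial antioxidant enzyme SOD2, and in human tumour cells miR-383 is known to lower peroxiredoxin 3, an enzyme that removes peroxide in mitochondria.

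The mature strands that the results turn on are shown 5′ to 3′ as the conserved table holds them, with the seed in capitals. They are printed so that seeds and 5′ ends can be compared between rows. For the first 3 the row lists pig among its species.
miR-21: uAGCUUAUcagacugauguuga
miR-210: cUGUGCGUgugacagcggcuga
miR-335: uCAAGAGCaauaacgaaaaaug
The other 2 come from rows that do not list pig. They are a miR-210 row that starts 1 base earlier, so that its seed is shifted, and the opposite arm of miR-335.
miR-210, earlier start: aCUGUGCGugugacagcggcuga
miR-335-3p: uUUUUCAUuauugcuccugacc

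The 3 pig strands have 3 different seeds, so no seed joins these miRNAs into one group. They also differ in composition: 63.6% of bases are G or C in miR-210, 36.4% in miR-21 and 31.8% in miR-335. The seed of miR-21 stands in 11 conserved rows, 8 of them in its own family. The others are a mouse row with no family name and 2 rows of miR-590-5p, a miRNA that shares this seed. The largest of these, the horse row of miR-590-5p, held 18.5 reads in iron dorsal and 42 in control dorsal, and 17 in iron ventral against 28 in control ventral, so within the conserved table the seed was carried almost wholly by miR-21; the predicted miRNAs, listed without sequences, were not searched. In the RefSeq annotation of Sscrofa 11.1, a later build than the one the submitters name, the gene of miR-335 lies inside MEST, an imprinted gene, and that of miR-383 inside SGCZ, which encodes a sarcoglycan. The miR-21 gene lies between PTRH2 and TUBD1 and that of miR-210 between RASSF7 and PHRF1.

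The annotated miRNA reads per library ran between 11396809 and 13839556, and levels are given as CPM, reads set to a common library total. The totals were scaled by TMM, a method that sets the libraries level on the bulk of their miRNAs, and 3 reads equal 0.217 to 0.263 CPM. Called measured here are the 251 of 321 miRNAs with 10 CPM or more in some library. Among them were miR-21, miR-210 and miR-335, but not miR-383, whose annotated row stayed below. Neuronal markers were abundant in every library: miR-9-2, miR-124a, miR-128 and miR-138 summed to 228107 CPM in iron dorsal against 236127 in control dorsal, and 242497 in iron ventral against 256473 in control ventral. Most of each sum was miR-9-2. It stood at 180323 CPM in iron dorsal against 176620 in control dorsal, and 184262 in iron ventral against 202670 in control ventral. For iron in dorsal hippocampus miR-124a, miR-128 and miR-138 were lower, at log2 ratios of -0.27, -0.44 and -0.17, and miR-9-2 was at 0.03. In ventral hippocampus they were at 0.05, 0.35 and -0.01, and miR-9-2 at -0.14. For dorsal against ventral in iron piglets all 4 were lower, with a median of -0.25 beside 0.01 for all measured. In controls 1 had an interval above 1 and 2 below. The control ventral library stood apart in some other miRNAs, named here after their values were seen. miR-183 was at 16.1 CPM in iron dorsal and 20.1 CPM in control dorsal, and at 16.3 CPM in iron ventral against 130.6 CPM in control ventral. miR-96-5p was at 8.92 CPM in iron dorsal and 16.9 CPM in control dorsal, and at 13.4 CPM in iron ventral against 99.5 CPM in control ventral. Each comparison with control ventral rests on this library.

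**Figure D1:**
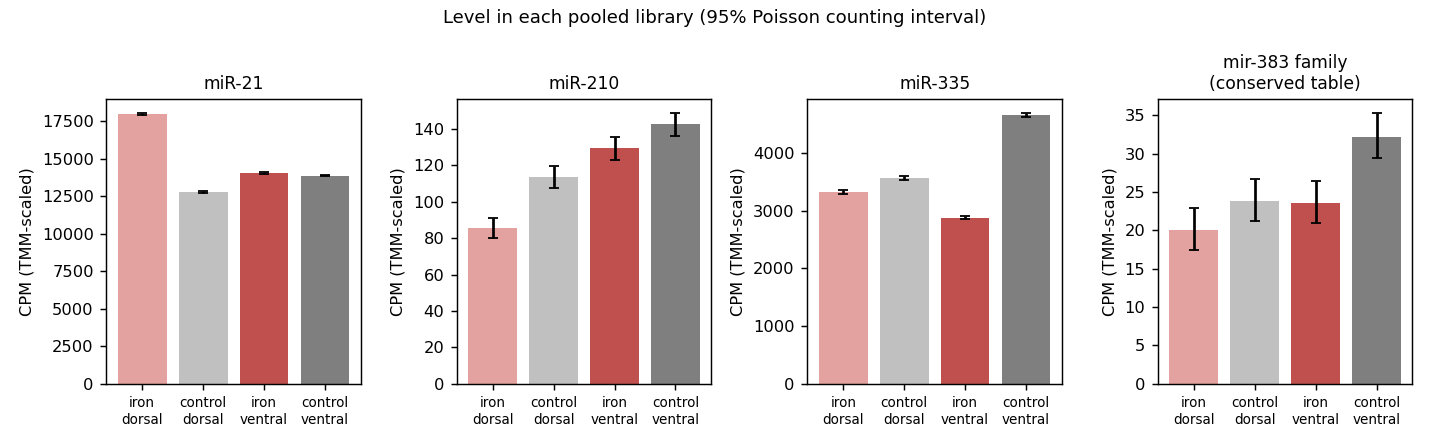
Level of each miRNA in the 4 pooled libraries, in TMM-scaled CPM on axes that start at 0, with 95% Poisson counting intervals; miR-383 is shown as the sum of its family in the conserved table. miR-21 stands highest in iron dorsal at 17963 CPM, miR-210 lowest in iron dorsal at 85.5 CPM, and miR-335 highest in control ventral at 4660 CPM.

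miR-21 was the most abundant of the 4 and stood highest in the iron dorsal library. It had 191256 reads in iron dorsal and 157872 in control dorsal, and 173491 in iron ventral against 201132 in control ventral. In CPM this was 17963 in iron dorsal against 12794 in control dorsal, and 14071 in iron ventral against 13879 in control ventral, and its rank among annotated miRNAs lay between 14 and 19. Iron dorsal was 1.404 times control dorsal (95% counting interval 1.395 to 1.413), a log2 ratio of 0.49. In ventral hippocampus the 2 libraries were almost level, at a ratio of 1.01 (1.007 to 1.02); this difference turned to a log2 ratio of -0.04 when scaled by total reads and 0.00 (-0.0049) with rows not merged, so its direction rests on the scaling. Within the iron piglets dorsal exceeded ventral 1.28-fold (1.27 to 1.28), while within the controls dorsal was 1.08-fold lower than ventral (1.08 to 1.09). Iron ventral and control ventral are thus neighbours in the order of levels that the scaling can exchange, and control dorsal was lowest and iron dorsal highest under each scaling tried.

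miR-210 was a low-abundance member, and it was lower in iron than in control in both regions. It had 910 reads in iron dorsal and 1402 in control dorsal, and 1595 in iron ventral against 2065 in control ventral. These are 85.5 CPM in iron dorsal against 113.6 in control dorsal, and 129.4 in iron ventral against 142.5 in control ventral, and the order of the 4 libraries was the same under each of 5 scalings tried. The dorsal iron library was 1.33-fold lower than its control (1.22 to 1.45), and the ventral one 1.10-fold lower (1.03 to 1.18). Region separated the libraries as well: dorsal was 1.51-fold lower than ventral in iron piglets (1.39 to 1.64) and 1.25-fold lower in control piglets (1.17 to 1.34). The 2 ventral libraries are the closest neighbours, with Poisson intervals of 123 to 136 CPM in iron and 136 to 149 CPM in control.

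miR-335 had its highest level in the control ventral library, the one that also stood apart in miR-183 and miR-96-5p. It had 35408 reads in iron dorsal and 44011 in control dorsal, and 35546 in iron ventral against 67531 in control ventral. In CPM this was 3326 in iron dorsal against 3567 in control dorsal, and 2883 in iron ventral against 4660 in control ventral. Iron ventral was 1.62-fold lower than control ventral (1.596 to 1.64), a log2 ratio of -0.69, and only 7 of the 251 measured miRNAs had a lower log2 ratio in this comparison. In dorsal hippocampus the iron library was 1.07-fold lower than its control (1.06 to 1.09), where 97 measured miRNAs had a lower ratio. The 2 dorsal libraries lay between the ventral ones, so dorsal was 1.15 times ventral in iron piglets (1.14 to 1.17) and 1.31-fold lower than ventral in controls (1.29 to 1.32). The comparisons of control ventral with iron ventral and with control dorsal share that library and are not 2 separate observations. The comparisons that leave it out, iron with control in dorsal hippocampus and dorsal with ventral in iron piglets, gave the smaller ratios of 1.07-fold lower and 1.15 times.

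Markers of other cell types also differed between the libraries. The choroid plexus marker miR-204, the 1 annotated member of its list, stood at 164 CPM in iron dorsal against 199.1 in control dorsal, and 178 in iron ventral against 253 in control ventral, so it was lower in iron in both regions. The immune and microglia list, with 5 of 6 members measured, summed to 889 CPM in iron dorsal against 1009.6 in control dorsal, and 951 in iron ventral against 1109 in control ventral, also lower in iron in both. That list holds miR-146a but not miR-146b, which was higher in iron in both regions. miR-146b stood at 1019 CPM in iron dorsal against 937 in control dorsal, and 875 in iron ventral against 380 in control ventral. The immune list as chosen thus leaves out a relative that differed in the opposite direction, and no sum with miR-146b was made. The oligodendrocyte list, with 2 of 3 measured, summed to 8812 CPM in iron dorsal against 11503 in control dorsal, and 13906 in iron ventral against 10264 in control ventral, so the sign of its difference was opposite in the 2 regions. The epithelial list has 1 annotated member, miR-429, at 0.28 CPM in iron dorsal against 0.24 in control dorsal, and 0.16 in iron ventral against 4.49 in control ventral, which is 3 reads or fewer in each library but control ventral. For miR-21, which vessels express, the vascular list of 6 miRNAs, all measured, summed to 18871 CPM in iron dorsal against 21937 in control dorsal, and 17044 in iron ventral against 16024 in control ventral. In dorsal hippocampus 2 of the 6 had an interval above 1 for iron and 3 below, beside 37.8% and 39.8% of all measured miRNAs. The median log2 ratio was -0.03 beside -0.02 for all measured, and the sum was mostly miR-143-3p, at 11542 CPM in iron dorsal against 14800 CPM in control dorsal. For iron in ventral hippocampus 5 vascular miRNAs lay above and 0 below, beside 43% and 34.3% of all, with a median of 0.13. For dorsal against ventral in controls 6 lay above and 0 below, beside 39% and 36.3%, with a median of 0.23. In iron piglets 3 lay above and 0 below, beside 40.2% and 37.5%, with a median of 0.06. The erythroid list of 3, all measured, summed to 861 CPM in iron dorsal against 837 in control dorsal, and 1019 in iron ventral against 1075 in control ventral. Its members were mixed. For iron in dorsal hippocampus miR-144 was higher, at a log2 ratio of 0.34, and miR-451 (-0.06) and miR-486 (-0.26) were lower. In ventral hippocampus miR-451 was lower (-0.18), and miR-144 (0.06) and miR-486 (0.17) were higher. The muscle list, with 3 of 5 measured, summed to 229 CPM in iron dorsal against 282 in control dorsal. In ventral hippocampus it summed to 261 CPM in iron against 174.8 in control, so its difference was also opposite in the 2 regions. No list member was at 0 reads in any library. The part of these cell types in the levels of miR-335, miR-210 and miR-21 was not tested, and in whole tissue fewer cells of a type cannot be told apart from less RNA in each cell.

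miR-383 was scarce, and its annotated row held far fewer reads than its family in the conserved table. The annotated row had 24 reads in iron dorsal and 22 in control dorsal, and 29 in iron ventral against 53 in control ventral. The 3p rows of the family held 20 reads in iron dorsal and 19 in control dorsal, and 25 in iron ventral against 50 in control ventral, close to the annotated row. The 5p rows held 193 reads in iron dorsal and 275 in control dorsal, and 265 in iron ventral against 417 in control ventral. Most reads of the family thus lay in 5p rows, several times the number in the annotated row. Summed over both arms the family reached 20.005 CPM in iron dorsal against 23.8 in control dorsal, and 23.5 in iron ventral against 32.2 in control ventral. Iron was 1.37-fold lower than control in ventral hippocampus (1.18 to 1.59) and 1.19-fold lower in dorsal, where the interval of 0.995 to 1.43 takes in no difference at this depth. Dorsal was 1.18-fold lower than ventral in iron piglets (0.98 to 1.41) and 1.35-fold lower in controls (1.17 to 1.57). The annotated row alone passed 2-fold in 1 comparison, control dorsal against control ventral, at 2.05-fold lower (1.23 to 3.54) on 22 against 53 reads, and it was below the 10 CPM minimum in both.

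None of the 3 measured members reached a 2-fold ratio with an interval that excludes 1. Of all 251 measured miRNAs, 1.99% passed it for iron against control in ventral hippocampus, 0.797% for iron against control in dorsal, 0.797% for dorsal against ventral in iron piglets and 1.99% for dorsal against ventral in control piglets. The same held for the 4 families, 0 of which passed in any comparison. Of 188 measured families, 4.26% passed for dorsal against ventral in iron piglets and 2.66% in each of the other comparisons. All 12 ratios of the measured members had an interval that excludes 1, but this is common at such depth: 77.3% of measured miRNAs had one for iron in ventral hippocampus, 77.7% for iron in dorsal, 77.7% for dorsal against ventral in iron piglets and 75.3% in controls. By size, 9 miRNAs had a larger log2 ratio in either direction than miR-335 for iron in ventral hippocampus, and 46 than miR-21 for iron in dorsal. For iron in ventral hippocampus the number was 150 for miR-210 and 232 for miR-21, and for iron in dorsal 65 for miR-210 and 184 for miR-335. For dorsal against ventral in iron piglets 19 had a larger one than miR-210 and 58 than miR-21. A higher ratio than that of miR-335 was found in 61. This last count leaves out large ratios in the other direction, so it cannot be compared with the 19 and 58. In controls the numbers larger in size were 66 for miR-210, 169 for miR-21 and 52 for miR-335.

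**Figure D2:**
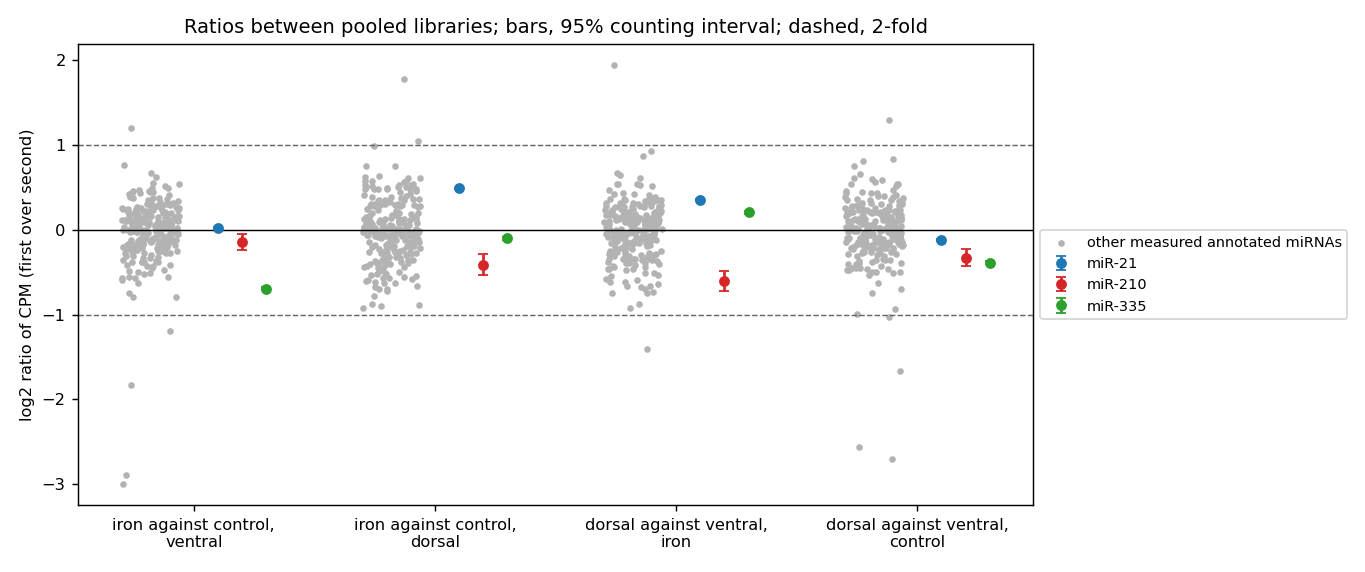
Log2 ratio of CPM between pooled libraries, first-named over second, for miR-21, miR-210 and miR-335 (coloured, with 95% counting intervals) beside the other measured annotated miRNAs (grey); dashed lines mark 2-fold. The 3 members stay inside 2-fold in all 4 comparisons, with miR-335 at -0.69 for iron in ventral hippocampus and miR-210 at -0.60 for dorsal against ventral in iron piglets as their lowest values.

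A test over all 4 libraries was possible only by letting the 2 regions stand in for replicates, by fitting treatment and region as additive terms, which leaves 1 residual degree of freedom. Since dorsal and ventral tissue was taken from the same animals, its p-values describe these libraries and not piglets. edgeR's quasi-likelihood test with Benjamini-Hochberg adjustment called 0 of 251 miRNAs (0%) for iron and 0 (0%) for region. Unadjusted p was under 0.05 for 11 miRNAs in the iron term and 8 in the region term, where chance alone gives 12.6 of 251; the DESeq2 Wald test called 1 for iron and 0 for region, and limma-trend 0 for each. For iron the fitted log2 difference was 0.25 for miR-21, -0.27 for miR-210 and -0.40 for miR-335, all at an adjusted p of 0.929 in edgeR. In each of them the sign was the same in 2 of 2 regions with TMM scaling; for miR-21 it differed between the regions with total reads or rows not merged. limma-trend gave 95% intervals of -0.15 to 0.66 for miR-21, -0.81 to 0.26 for miR-210 and -0.84 to 0.05 for miR-335, all of which take in 0. For region the fitted log2 difference, dorsal minus ventral, was -0.46 for miR-210 (limma-trend interval -0.99 to 0.07), 0.12 for miR-21 (-0.29 to 0.52) and -0.09 for miR-335 (-0.54 to 0.36), each at an adjusted p of 0.996 in edgeR.

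The iron ratios of the 2 regions were not alike in size. The dorsal log2 ratio minus the ventral one was 0.47 for miR-21, where 72 of the 251 measured miRNAs had a larger difference in size. It was 0.59 for miR-335, with 44 larger, and -0.27 for miR-210, with 152 larger. With 1 library per group no test of such a difference exists.

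The conserved table gave a second count of each miRNA by its separate arms. In that table the rows of each library sum to whole reads and many rows hold fractions, so reads that matched several rows were divided between them, and single rows are not counts of single isoforms. miR-21 was almost wholly its 5p arm: 3p reads numbered 36 in iron dorsal against 47 in control dorsal, and 62 in iron ventral against 50 in control ventral, and the 3p share of the family was highest in iron ventral, at 0.0396%. Its family total was 1.39 times control in dorsal iron (1.38 to 1.397) and 1.02 times control in ventral iron (1.01 to 1.02); the second turned to a log2 ratio of -0.03 when scaled by the reads of the conserved table. Longer 5p rows, which do not list pig, held most of the reads; the largest, of 23 bases, held 30.5% of the family in iron dorsal against 28.98% in control dorsal, and 29.9% in iron ventral against 29.9% in control ventral. The 22-base row that lists pig held 14.998% in iron dorsal against 16.3% in control dorsal, and 14.9% in iron ventral against 15.4% in control ventral.

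For miR-335 both arms were well counted, and both were lower in iron in ventral hippocampus, the 3p arm by less. The 3p arm had 3903 reads in iron dorsal and 4458 in control dorsal, and 3445 in iron ventral against 5963 in control ventral. In ventral hippocampus iron was 1.47-fold lower than control in the 3p arm (1.41 to 1.54) and 1.62-fold lower in the 5p arm (1.599 to 1.64). In dorsal hippocampus the 3p arm stood at a ratio of 1.01 (0.972 to 1.06), whose interval takes in 1, and the 5p arm was 1.10-fold lower (1.09 to 1.12). The arms come from 1 precursor in the same libraries, so they are not independent. The 3p share of family reads was 11.1% in iron dorsal (exact binomial interval 10.8% to 11.5%) and 10.05% in control dorsal (9.77% to 10.3%). It was 9.75% in iron ventral (9.44% to 10.06%) and 8.94% in control ventral (8.72% to 9.16%). The share was thus higher in iron than in control in both regions by more than counting error. It was also higher in dorsal than in ventral, in iron and in control piglets, by more than counting error. How common such differences are among other families was not tested. The annotated miR-335 row held 67531 reads in control ventral, against 60757 in the 5p rows and 5963 in the 3p row, and no source used here states whether it takes in both arms.

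miR-210 lay mostly in its 3p arm, where rows with the pig 5′ end, the second sequence shown above, held 80.1% of 3p reads in iron dorsal and 78.7% in control dorsal, and 76.4% in iron ventral against 77.6% in control ventral. The rows that start 1 base earlier held the remainder, 19.9% in iron dorsal against 21.3% in control dorsal, and 23.6% in iron ventral against 22.4% in control ventral. The 5p arm had 21 reads in iron dorsal and 49 in control dorsal, and 30 in iron ventral against 34 in control ventral. Its dorsal ratio of iron to control was 2.01-fold lower (1.19 to 3.53), and its ventral ratio was 1.04 (0.613 to 1.75). The dorsal ratio compares 1.97 CPM with 3.97 CPM, both below the 10 CPM minimum. In controls the 5p arm was 1.69 times as high in dorsal as in ventral (1.07 to 2.70), where the 3p arm was 1.22-fold lower. How often such rare arms of other families pass 2-fold was not tested. The 3p arm was 1.26-fold lower in iron dorsal (1.15 to 1.39) and 1.09-fold lower in iron ventral (1.01 to 1.18).

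**Figure D3:**
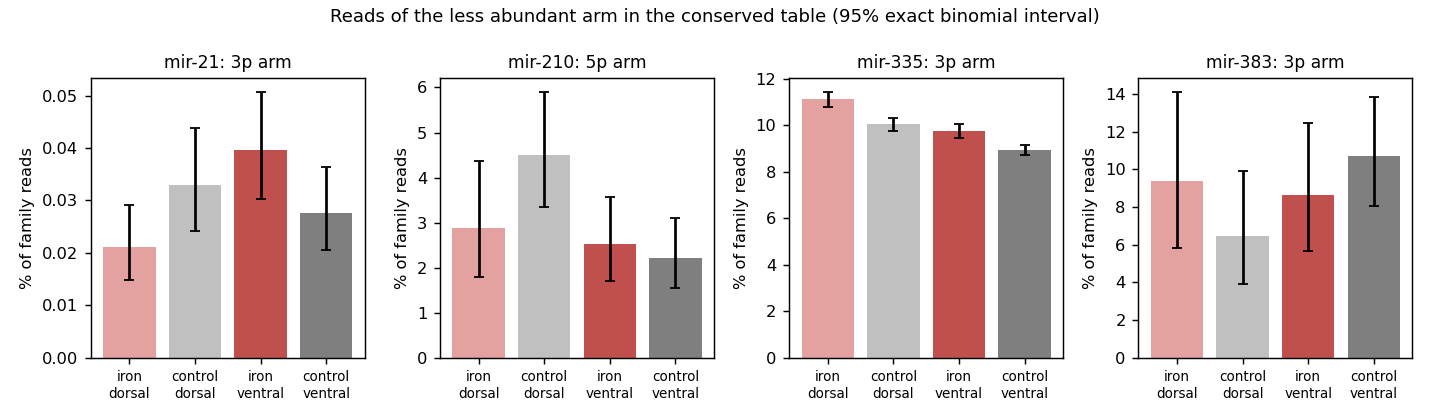
Share of each family's reads in the conserved table that fell in its less abundant arm, in percent, in the 4 pooled libraries, with exact binomial 95% intervals; each panel has its own axis from 0. The miR-335 3p share runs between 8.94% in control ventral and 11.1% in iron dorsal, while the miR-21 3p share is at most 0.0396%, in iron ventral.

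Other miRNAs of these pathways were read beside the members in 2 lists. The first holds miRNAs assigned to the axis of NRF2, the factor that switches on antioxidant genes, and KEAP1, its inhibitor; 12 of its 14 annotated members were measured. None of them was 2-fold different in any comparison, where 0.797% to 1.99% of all measured miRNAs were. At that share a list of this size can hold none without differing from the rest. For iron in ventral hippocampus 6 had an interval above 1 and 5 below, with a median log2 ratio of 0.04 that became -0.02 with total reads, beside 43% and 34.3% of all measured miRNAs and a median of 0.00 (0.0018). For iron in dorsal hippocampus 3 lay above and 5 below with a median of -0.05, beside 37.8% and 39.8% of all and a median of -0.02. The most abundant member, miR-7, which can lower KEAP1 in human neuronal cells, stood at 52574 CPM in iron dorsal against 36339 in control dorsal, and 28702 in iron ventral against 49733 in control ventral. The next, miR-27b-3p, had 24635 CPM in iron dorsal against 17674 in control dorsal, and 24421 in iron ventral against 17944 in control ventral, so it was higher in iron in both regions, at log2 ratios of 0.48 and 0.44.

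The second list holds miRNAs assigned to hypoxia or to HIF-1, and 24 of its 27 annotated members were measured. Again none was 2-fold different, beside the same 0.797% to 1.99% of all measured miRNAs. For iron in ventral hippocampus 15 lay above and 4 below, with a median of 0.16, beside the same 43% and 34.3% of all. These members are not separate observations. miR-199a-3p and miR-199b-3p had the same ratio of 1.179, and the list holds both arms of some miRNAs and close relatives such as miR-181a and miR-181b. For iron in dorsal hippocampus 9 lay above and 8 below with a median of 0.01, which became -0.12 with total reads and -0.10 with the authors' RPM. For dorsal against ventral in iron piglets 6 lay above and 14 below with a median of -0.13, beside 40.2% and 37.5% of all measured; in controls 11 lay above and 8 below with a median of 0.06, beside 39% and 36.3%. The NRF2 and KEAP1 list had 3 above and 7 below in iron piglets (median -0.12) and 4 above and 6 below in controls, where the median of -0.01 became 0.01 with median-of-ratios and 0.02 with the authors' RPM. Of the 2 most abundant members, miR-181a stood at 26509 CPM in iron dorsal against 26410 in control dorsal, and 32169 in iron ventral against 21852 in control ventral, a log2 ratio of 0.56 for iron in ventral hippocampus. The other, miR-26a, lay between 26521 and 30988 CPM. miR-155-5p stands in both lists, some members are also cell type markers (miR-128 and miR-138 of neurons, miR-142 and miR-155 of immune cells, miR-144 of erythroid cells), and both lists were chosen with earlier results of these data known.

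**Figure D4:**
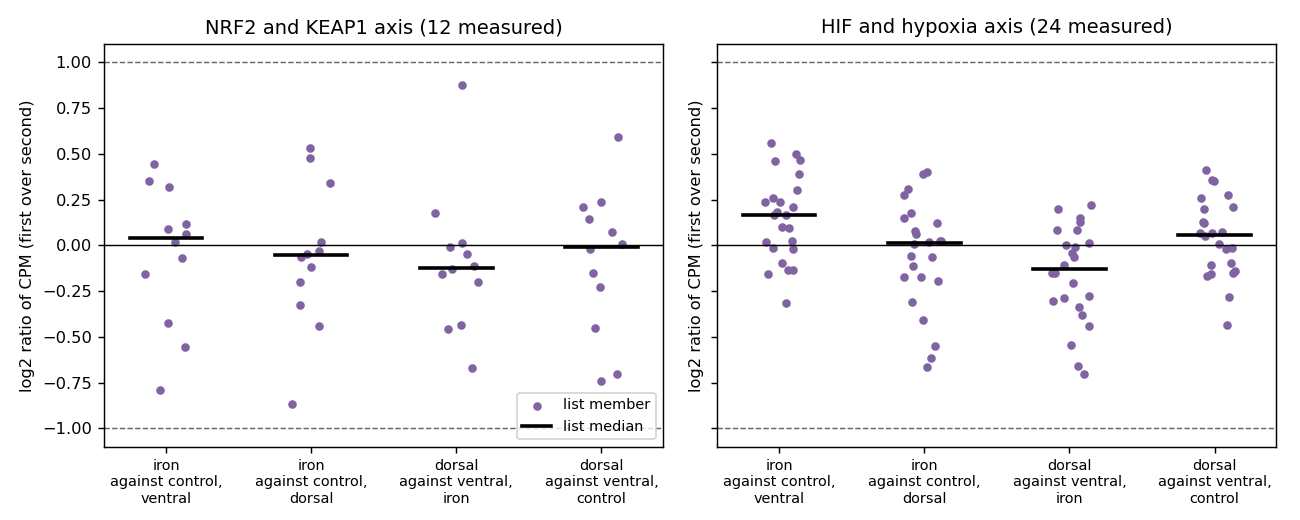
Log2 ratio of CPM, first-named over second, of the measured members of the NRF2 and KEAP1 list (12) and of the HIF and hypoxia list (24) in the 4 comparisons; black bars are list medians and dashed lines mark 2-fold. All points lie inside 2-fold, and the HIF and hypoxia list has its highest median, 0.16, for iron in ventral hippocampus.

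Likeness of pattern was measured as the root mean square difference of log2 CPM over the 4 libraries, each miRNA centred on its own mean. For miR-21 the 3 nearest of the measured miRNAs were miR-345-3p (0.026), miR-423-3p (0.028) and miR-361-5p (0.038), where the median over all measured was 0.24. For miR-210 they were miR-24-2-5p (0.052), miR-424-5p (0.079) and miR-18a (0.093), with a median of 0.32. For miR-335 they were miR-129a-3p (0.052), miR-708-3p (0.085) and miR-326 (0.088), with a median of 0.31. With 4 libraries that share their pools, these are descriptions. Over the 4 libraries the highest level was 1.40 times the lowest for miR-21, 1.67 times for miR-210 and 1.62 times for miR-335, where the median over measured miRNAs was 1.33. A larger range was found in 90 of them than in miR-21, in 28 than in miR-210 and in 32 than in miR-335.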

How the data were processed

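Small RNA was read by Illumina sequencing in 4 pooled libraries. Per the submitters' processing notes, cutadapt 1.2.2 and the builds Sscrofa 10.2 and susScr 3 were used; no source used here names the aligner, the quantifier or the miRNA release. The authors deposited reads per miRNA, which are estimated counts, since some are fractions, and in the annotated table also RPM; 8 further columns of per-sample values were not used. Annotated rows that named 1 set of precursors and whose reads differed by at most 0.1% in each library were merged, leaving 321 of 326, and reads were rounded to whole numbers. Scaling was TMM (edgeR 4.0.16). Ratios carry exact conditional binomial 95% intervals. Additive models used edgeR's quasi-likelihood test, DESeq2 1.42.0 and limma 3.58.1, adjusted over all measured miRNAs at a threshold of 0.05. Of these models only the edgeR fit was run on simulated counts, and its outcome there is not reported here. Conserved rows were summed by family and scaled by the same library sizes; a row with no arm in its name took the arm whose rows it resembled. Named were all members, list members past 2-fold with the 2 most abundant of each list, and the 3 miRNAs nearest in pattern. Members and lists were chosen with earlier results of these data known. PCR-amplified reads are not independent molecules. Alternatives were total reads, median-of-ratios size factors, the authors' RPM, no filter, a minimum of 100 CPM and rows not merged.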

Additional observations from a re-analysis of the deposited data

Results flagged for a closer look

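Dorsal and ventral hippocampus differed in opposite directions in iron and in control piglets for 2 members. For miR-21 the dorsal over ventral log2 ratio was 0.35 in iron piglets and -0.12 in controls, a difference of 0.47. For miR-335 it was 0.21 in iron piglets and -0.39 in controls, a difference of 0.59. The families summed from the conserved table, which count the same libraries, gave 0.45 for mir-21 and 0.56 for mir-335. All these ratios had counting intervals that exclude 1, as did 77.7% of measured miRNAs in iron piglets and 75.3% in controls. Of the 251 measured miRNAs, 72 had a larger difference in size than miR-21 and 44 than miR-335. The values 0.47 and 0.59 are the same as those given above for the dorsal minus the ventral iron ratio. The control ratios rest on the control ventral library, which stood apart in some other miRNAs. Each group is 1 pooled library, and these differences were not tested.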

How the results depend on the processing

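Total-read scaling lowered the median of all measured miRNAs by 0.13 on the log2 scale for iron in dorsal hippocampus and by 0.10 for dorsal against ventral in iron piglets; the authors' RPM lowered the first by 0.11. With total reads the log2 ratio of miR-21 for iron in ventral hippocampus turned to -0.043, and it was 0.36 for iron in dorsal, 0.25 for region in iron piglets and -0.16 for region in controls. The same 4 values for miR-335 were -0.76, -0.23, 0.10 and -0.42, and miR-210 moved to -0.54 for iron in dorsal. With median-of-ratios, miR-21 was at 0.042 for iron in ventral, 0.4999 for iron in dorsal and -0.10 for region in controls, and miR-335 at -0.67 for iron in ventral. With the authors' RPM, miR-21 was at 0.38 for iron in dorsal, 0.28 for region in iron piglets and -0.085 for region in controls, and miR-335 at -0.21, 0.13 and -0.35 in these. With rows not merged, miR-21 turned to -0.0049 for iron in ventral and was at 0.51, 0.33 and -0.18 in the other comparisons, and miR-335 at -0.72 for iron in ventral, 0.18 for region in iron piglets and -0.45 in controls. The mir-21 family turned to -0.031 for iron in ventral with the total of the conserved table. The other ratios of the 3 annotated members under these 4 scalings, 22 in number, stayed within their counting intervals, and the 24 refitted differences kept their sign and stayed uncalled. Of the other family ratios 17 stayed within their intervals and 14 moved without a change of sign.

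The counts of miRNAs at least 2-fold different were 5 (iron in ventral), 2 (iron in dorsal), 2 (region in iron piglets) and 5 (region in controls). They were 9, 6, 4 and 11 with no filter and 3, 0, 0 and 2 with a minimum of 100 CPM, and total reads gave 4 for iron in dorsal. The 0 edgeR calls for iron became 2 with total reads, median-of-ratios or rows not merged and 3 with no filter, and DESeq2 called 1. For region they became 3 with total reads, median-of-ratios or rows not merged and 4 with no filter. These calls were of miR-96-5p, miR-183, miR-217 and miR-429, all lower, and none was a member; the cause was not tested. Each combination of region and treatment is 1 library, so no replicate number can be blocked. The only pairing the design allows is that of the additive model, which compares treatments within region and regions within treatment. Leaving 1 library out leaves no residual degree of freedom. Depth limits miR-383 and the rarer arms of miR-21 and miR-210.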
